A study of Mus musculus with 12 samples.

Results

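The B cell receptor complex and its proximal signalling were followed through 9 genes, chosen by name: the receptor chains Cd79a and Cd79b, the inhibitory coreceptors Cd22 and Cd72, the kinases Blk, Syk and Btk, and the adaptors Blnk and Bank1. All 9 were found, by their Entrez IDs, among the 9842 genes of the deposited expression table. Of the immunoglobulin genes that make the receptor's antigen-binding part, 6 were searched for by symbol and 0 were found, so they were not analysed here.

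The receptor is a membrane immunoglobulin joined to a heterodimer of the Cd79a and Cd79b products, whose cytoplasmic tails carry the phosphorylation motifs that start signalling. Src family kinases such as Blk and Lyn phosphorylate these tails, Syk docks on them and becomes active, and Syk then phosphorylates the adaptor Blnk, on which Btk and phospholipase C gamma 2 meet. Cd22 and Cd72 recruit the phosphatase Ptpn6 (SHP-1) and restrain the signal, and transitional B cells in the spleen are selected through this receptor before they become follicular or marginal zone B cells.

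RNA was sequenced from 12 libraries of spleen B cells of female C57BL/6J mice, 3 libraries in each of 4 groups. The groups eMZB_KO (LSD1 knockout) and eMZB_WT (LSD1 wild type) are marginal zone B cells derived ex vivo, made from transitional B cells in a 3-day culture with BAFF, a B cell survival cytokine, and DL1, a ligand of Notch receptors, then sorted as B220+ cells with CD21 and CD1d and without Thy1.1, F4/80 and CD11b. The groups TrB_KO and TrB_WT are transitional B cells of the same genotypes, sorted without stimulation as B220+ cells with CD93 and without the same 3 markers. LSD1, encoded by Kdm1a, is a histone demethylase; the labels name neither the deleting Cre nor its promoter, and do not say whether replicates came from separate animals, so p-values here measure the spread between libraries, which may be technical.

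Values are FPKM (reads per kilobase of gene and per 1 M reads, M for mega) as the authors deposited them, divided by 1 factor per library so that the typical gene is level (scaled FPKM). Read totals were 7.24 to 19.35 M per library, with 1.96 to 8.78 M reads in the listed genes, and each of the 9 genes held 617 to 26847 reads in every library. Kdm1a was at 2.65, 2.53 and 2.66 scaled FPKM in eMZB_KO, against 7.53, 8.63 and 4.68 in eMZB_WT, and at 3.35, 2.56 and 2.99 in TrB_KO, against 8.54, 7.93 and 3.47 in TrB_WT. The groups did not overlap in either cell type. The library labelled TrB_WT replicate 3 lay next to the knockouts, against its label, while eMZB_WT replicate 3 was intermediate, above every eMZB_KO library and below the other eMZB_WT libraries, and Kdm1a passed the test in neither cell type with them (log2 change -1.10, adjusted p = 0.148 in eMZB; -0.87, adjusted p = 0.249 in TrB; limma). Without both it did (-1.33, adjusted p = 0.000522; -1.23, adjusted p = 0.00097). The library TrB_KO replicate 3 stood apart, with 61.6% of its reads in the listed genes, against 27.8% to 41.7% in the 6 eMZB libraries and 16.7% to 20.9% in the other TrB libraries. Of the markers of other cells, 0 of 7 for T cells, 0 of 5 for neutrophils and 0 of 4 for platelets were listed, while all 6 B cell markers were. Each of the 9842 listed genes had at least 1 deposited FPKM in at least 3 libraries. The immunoglobulin genes searched for were not listed either, so an unlisted gene is not shown to be absent from the cells. Of the sorting markers, Cr2 (CD21) averaged 64.4 ± 1.3 in eMZB_KO and 65.5 ± 4.9 in eMZB_WT, against 13.3 ± 1.8 in TrB_KO and 8.77 ± 1.14 in TrB_WT (SD, n = 3 each). Cd93 was at 0.831 ± 0.158 in eMZB_KO and 0.873 ± 0.203 in eMZB_WT, against 5.21 ± 0.78 in TrB_KO and 5.0 ± 0.78 in TrB_WT, while Cd1d1 lay between 22.3 and 27.8 on average in all 4 groups and Ptprc (B220) between 51.5 and 56.5.

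The question of how the receptor machinery differs between culture-derived marginal zone cells and their transitional precursors was put to the wild-type groups first. On scaled values the signal-transducing chains Cd79a and Cd79b fell by 46.4% and 48.0% in eMZB_WT relative to TrB_WT, and Syk and Cd72 were lower too, while Cd22, Blk and Bank1 were modestly higher. Of the 9 genes, 7 passed the test (3 higher, 4 lower; limma, adjusted p under 0.05 over all 9842 genes), and Btk and Blnk did not. With 75th percentile scaling 6 passed (2 higher, 4 lower; not Bank1, adjusted p = 0.0565) and with quantile normalization 5 (1 higher, 4 lower; neither Bank1, adjusted p = 0.0858, nor Cd22, 0.11, adjusted p = 0.474). Among all 9842 genes 27.4% passed on scaled values, 14.6% higher and 12.7% lower. With 75th percentile scaling 2765 genes passed, and with quantile normalization 2917. For 7 of the 9 the libraries of the 2 groups did not overlap, against 45.1% of all genes. The median log2 change was 0.13 over the 9 genes and -0.00 over all genes. With bulk RNA, fewer cells of a type and less RNA per cell cannot be told apart. All eMZB libraries came from the 3-day culture and all TrB libraries from unstimulated cells. Cell type and culture thus cannot be told apart either, in both genotypes.

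Cd79a had 468, 496 and 415 scaled FPKM in eMZB_WT, against 796, 835 and 941 in TrB_WT. Every eMZB_WT library lay well below every TrB_WT library, and the log2 change was -0.90 (SE 0.10, adjusted p = 4.02e-05). Its partner Cd79b had 413, 450 and 400 in eMZB_WT, against 766, 792 and 872 in TrB_WT, a log2 change of -0.94 (SE 0.09, adjusted p = 1.44e-05). The highest eMZB_WT value of Cd79b was thus below the lowest TrB_WT value, as for its partner. Both chains were among the most abundant of the 9842 listed genes, which hold only part of each library's reads. Among these genes within each library, Cd79a ranked 8 in eMZB_WT and 4 to 5 in TrB_WT. Cd79b ranked 9 to 11 in eMZB_WT and 6 in TrB_WT.

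Syk, the kinase that docks on the phosphorylated tails, had 39.2, 38.6 and 41.7 scaled FPKM in eMZB_WT, against 60.9, 64.8 and 57.9 in TrB_WT. The groups did not overlap, and the log2 change was -0.61 (SE 0.08, adjusted p = 0.000106). Cd72, a C-type lectin coreceptor, had 107, 99.0 and 99.8 in eMZB_WT, against 132, 149 and 156 in TrB_WT, with a log2 change of -0.51 (SE 0.09, adjusted p = 0.000892). Its groups did not overlap either. By rank among the listed genes of a library, Syk stood at 349 to 384 in eMZB_WT and 197 to 232 in TrB_WT. Cd72 stood at 108 to 119 in eMZB_WT and 48 to 55 in TrB_WT.

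The other coreceptor went the other way. Cd22, a lectin that binds sialic acid, had 115, 111 and 119 scaled FPKM in eMZB_WT, against 90.7, 85.5 and 103 in TrB_WT, a log2 change of 0.31 (SE 0.09, adjusted p = 0.0237). Blk, a Src family kinase largely restricted to B cells, had 78.3, 76.5 and 76.5 in eMZB_WT, against 60.7, 62.7 and 68.0 in TrB_WT, a log2 change of 0.27 (SE 0.07, adjusted p = 0.0124). Neither gene overlapped between the groups. Bank1, a scaffold that binds Src family kinases, had 61.5, 59.2 and 59.5 in eMZB_WT, against 44.6, 44.2 and 53.3 in TrB_WT, a log2 change of 0.34 (SE 0.11, adjusted p = 0.0396). These 3 rises were the less firm calls. Leaving out 1 of the 12 libraries kept the call of Bank1 in 3 of 12 fits. Blk kept it in 10 of 12, losing it without eMZB_WT replicate 1 (adjusted p = 0.0536) or TrB_WT replicate 1 (adjusted p = 0.0525). Cd22 kept it in 8 of 12, losing it without eMZB_WT replicate 1 or 3, or TrB_WT replicate 1 or 2 (adjusted p 0.068 to 0.0918), whereas Cd79a, Cd79b, Syk and Cd72 kept theirs in 12 of 12.

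Blnk, the adaptor that links Syk to Btk and phospholipase C gamma 2, had 85.2, 85.4 and 84.8 scaled FPKM in eMZB_WT, against 75.9, 72.6 and 85.4 in TrB_WT. The kinase Btk had 34.5, 34.2 and 33.7 in eMZB_WT, against 30.7, 27.8 and 34.2 in TrB_WT. The groups overlapped for both genes, and the log2 changes of 0.13 for Blnk (95% interval -0.04 to 0.29, adjusted p = 0.234) and 0.14 for Btk (-0.03 to 0.32, adjusted p = 0.215) did not pass the test.

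**Figure D1:**
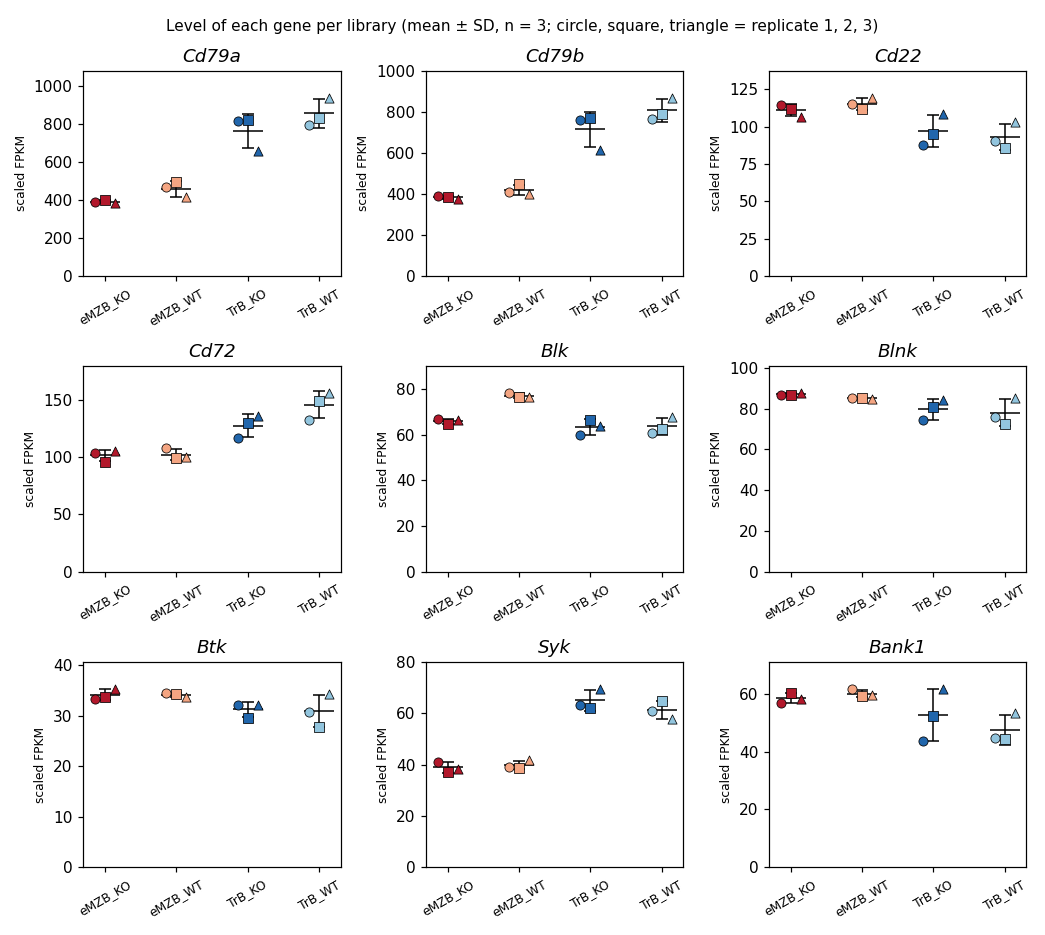
Scaled FPKM (y axis) of each of the 9 genes in the 4 groups (x axis); points are libraries, bars mean ± SD of 3 libraries. Cd79a lies between 385 and 496 in the 6 eMZB libraries, against 662 to 941 in the 6 TrB libraries; Btk and Blnk differ little between the groups.

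These directions rest on the scaling. On the values as deposited, the median gene was higher by 0.67 (log2) in eMZB_WT than in TrB_WT. On that scale Cd79a changed by -0.03 and Cd79b by -0.07, Cd72 by 0.36 and Syk by 0.25, so that Cd72 and Syk turned their sign, and only Cd22 (1.17, adjusted p = 0.0361) and Bank1 (1.19, adjusted p = 0.0471) passed the test, against 19.3% of all genes. All 4 genes that fell on scaled values lay below the all-gene median on deposited values, and the other 5 lay above it. This follows from the scaling, which sets the typical gene level, and is no separate support for the directions. Deposited FPKM of Cd79a were 595, 509 and 547 in eMZB_WT, against 488, 615 and 584 in TrB_WT. The groups thus overlapped on the deposited scale, which is itself relative to each library's reads and gives no absolute amounts. The share of reads in listed genes moved with the cell type, at 27.8% to 35.3% in eMZB_WT against 16.7% to 20.1% in TrB_WT, and its part in the deposited shift was not tested.

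**Figure D2:**
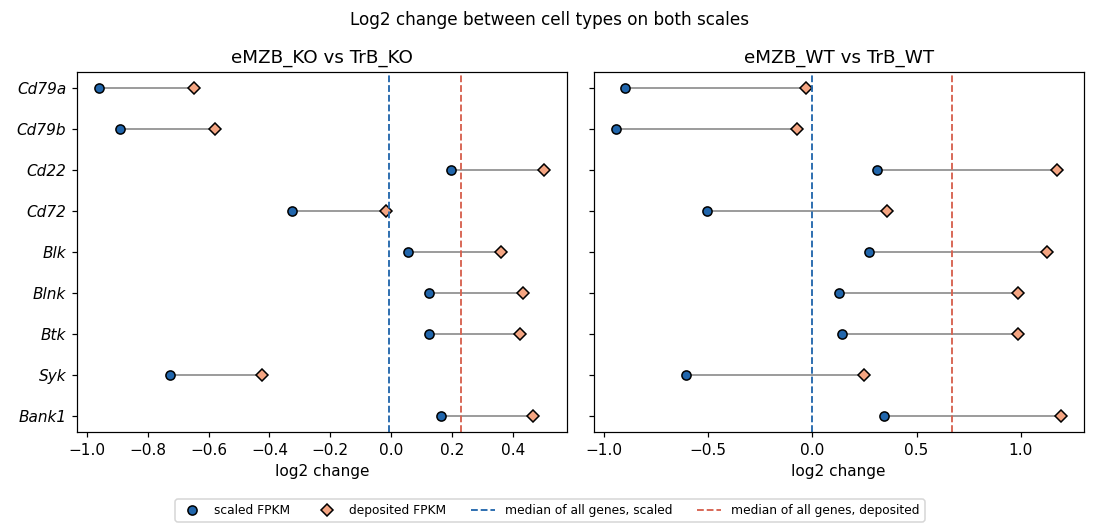
Log2 change (x axis) of each gene between cell types on scaled FPKM (circles) and on deposited FPKM (diamonds), with the median of all 9842 genes as a dashed line for each scale. In the wild-type panel the deposited median is 0.67. Cd79a, Cd79b, Cd72 and Syk lie left of it and the other 5 genes right of it, which follows from the scaling. Cd72 and Syk are below 0 on scaled values and above 0 on deposited values.

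Ratios between 2 genes of 1 library do not depend on that library's scale. For 5 pairs of members with related roles the ratio was compared between cell types within genotype, and between genotypes within cell type. This used a two-sided exact permutation test of 400 arrangements (smallest possible p 0.005), with adjustment over the 10 tests. The pairs were chosen with earlier results of these data known. They combine genes already compared singly above, and the Blk and Btk pairs share Syk, so the ratios are no separate support for the directions. The Cd22 to Cd72 ratio averaged 1.10 ± 0.08 in eMZB_KO and 1.13 ± 0.06 in eMZB_WT, against 0.761 ± 0.033 in TrB_KO and 0.64 ± 0.06 in TrB_WT (SD, n = 3 each). It was 1.60-fold higher in eMZB than in TrB (exact permutation p = 0.005, adjusted p = 0.0167), and every eMZB library lay above every TrB library. The Blk to Syk ratio averaged 1.69 ± 0.06 in eMZB_KO and 1.94 ± 0.09 in eMZB_WT, against 0.978 ± 0.081 in TrB_KO and 1.05 ± 0.11 in TrB_WT. It was 1.80-fold higher in eMZB (exact permutation p = 0.005, adjusted p = 0.0167). The Btk to Syk ratio averaged 0.879 ± 0.061 in eMZB_KO and 0.859 ± 0.044 in eMZB_WT, against 0.481 ± 0.023 in TrB_KO and 0.508 ± 0.082 in TrB_WT, and was 1.76-fold higher in eMZB with the same p-values. With the replicate block the differences were 0.67, 0.85 and 0.82 (log2) and the calls were lost, at an exact permutation adjusted p of 0.104 for each. The block takes same-numbered libraries as pairs in both genotypes, though the labels give no shared source for a number. Deviations from the group means correlated at 0.106 to 0.292 between eMZB_KO and TrB_KO, and at 0.0155 to 0.273 between eMZB_WT and TrB_WT. Without both wild-type libraries numbered 3 the differences were 0.67, 0.91 and 0.90, also not passing, at an adjusted p of 0.0556 for each by the exact permutation test. In both cases the p before adjustment was the smallest the fewer arrangements allow.

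The receptor chains stood in nearly equal amounts in all 4 groups. The Cd79a to Cd79b ratio averaged 1.02 ± 0.02 in eMZB_KO and 1.09 ± 0.05 in eMZB_WT, against 1.07 ± 0.00475 in TrB_KO and 1.06 ± 0.02 in TrB_WT, and spanned 0.999 to 1.13 over the 12 libraries. The difference between eMZB and TrB was -0.01 (log2; exact permutation p = 0.67, adjusted p = 0.838). The Blnk to Bank1 ratio averaged 1.49 ± 0.05 in eMZB_KO and 1.42 ± 0.03 in eMZB_WT, against 1.54 ± 0.17 in TrB_KO and 1.65 ± 0.05 in TrB_WT. Its difference of -0.13 did not pass after adjustment (exact permutation p = 0.04, adjusted p = 0.09). Without TrB_KO replicate 3 it was -0.17 and passed (exact permutation adjusted p = 0.0125).

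**Figure D3:**
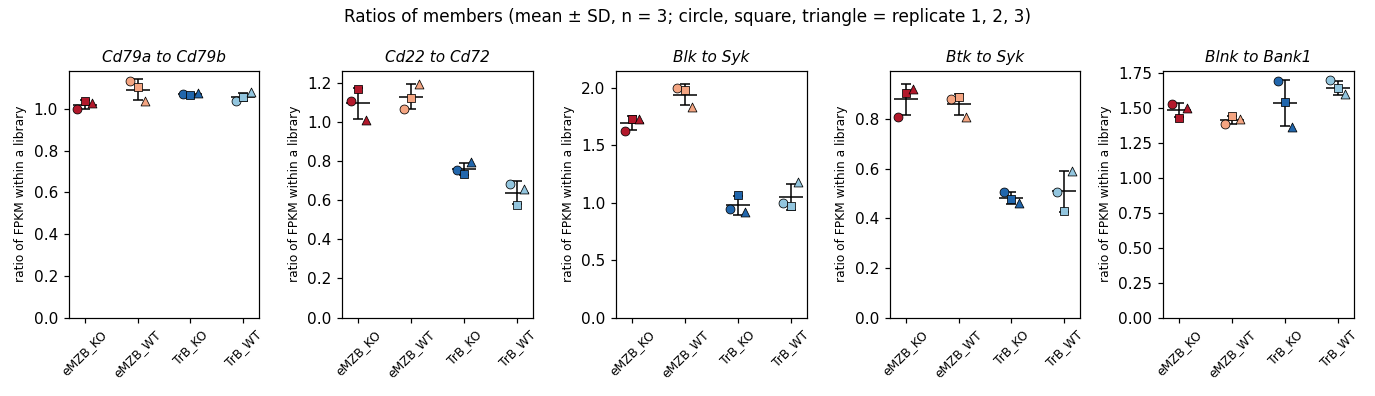
Ratio of FPKM of 2 genes within a library (y axis, linear) in the 4 groups (x axis); points are libraries, bars mean ± SD of 3 libraries. The ratios Cd22 to Cd72, Blk to Syk and Btk to Syk separate all eMZB from all TrB libraries, and Cd79a to Cd79b stays between 0.999 and 1.13.

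The promoters of the members that fell or rose together can be read beside these values. RefSeq windows (GRCm38.p6, the 250 bases before an annotated start, strand of the gene) were at hand for 7 of the 9 genes, not for Cd79b and Blk. They were searched on both strands for CCCNNGGG, the core bound by the B cell factor EBF1, for TGGGAA, the core bound by the Notch effector RBPJ, and for ATGCAAAT, the octamer bound by Oct-2. Cd79a (chr7:24897247-24897496, plus strand) and Cd72 (chr4:43454627-43454876, minus strand) are shown because they fell in eMZB on scaled values, Cd72 with a positive change on deposited wild-type values, and Cd22 (chr7:30879029-30879278, minus strand) and Bank1 (chr3:136326067-136326316, minus strand) because they rose in wild-type cells. Of the windows searched, those of Cd22, Cd72, Btk and Syk lie inside the annotated gene, and that of Bank1 partly. The starts they precede are thus not the outermost ones. Capitals mark a match.
Cd79a: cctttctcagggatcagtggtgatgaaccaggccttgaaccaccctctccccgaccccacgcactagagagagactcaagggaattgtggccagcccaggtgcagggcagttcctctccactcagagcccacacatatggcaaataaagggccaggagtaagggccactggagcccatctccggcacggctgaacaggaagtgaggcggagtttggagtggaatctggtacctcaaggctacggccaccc
Cd72: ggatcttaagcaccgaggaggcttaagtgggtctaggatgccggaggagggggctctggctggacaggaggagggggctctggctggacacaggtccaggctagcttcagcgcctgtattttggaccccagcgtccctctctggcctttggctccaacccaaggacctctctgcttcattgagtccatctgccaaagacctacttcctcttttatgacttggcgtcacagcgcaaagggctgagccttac
Cd22: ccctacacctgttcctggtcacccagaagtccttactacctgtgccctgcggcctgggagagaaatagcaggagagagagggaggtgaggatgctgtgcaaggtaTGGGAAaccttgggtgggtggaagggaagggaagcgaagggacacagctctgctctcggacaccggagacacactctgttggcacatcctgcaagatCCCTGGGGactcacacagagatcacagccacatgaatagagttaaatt
Bank1: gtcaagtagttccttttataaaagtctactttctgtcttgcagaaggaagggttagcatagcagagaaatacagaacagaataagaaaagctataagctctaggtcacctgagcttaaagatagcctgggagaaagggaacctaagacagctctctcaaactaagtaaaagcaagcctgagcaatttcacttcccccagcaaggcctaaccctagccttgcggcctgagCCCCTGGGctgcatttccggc
The windows of Cd79a and Cd72 held none of the 3 motifs in these exact letters. That of Cd22 held the EBF1 core 48 bases and the RBPJ core 145 bases before the start. That of Bank1 held the EBF1 core 21 bases before the start. Among the others, Blnk held the octamer, Btk the RBPJ core, and both Syk windows none. Of 32851 mouse windows of the same length, 11.82% held the EBF1 core, 21.59% the RBPJ core and 1.601% the octamer. The search allowed no other spelling, so a window without a match can still hold a site of the same factor. A match, or the lack of one, is a description of letters, and nothing about binding follows from it. Whether matches go with the direction of change was not tested.

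In LSD1-deficient cells the difference between the cell types was compared in the same way. Cd79a had 389, 402 and 385 scaled FPKM in eMZB_KO, against 815, 821 and 662 in TrB_KO, a log2 change of -0.96 (SE 0.10, adjusted p = 2.47e-05), and Cd79b had 389, 388 and 375 in eMZB_KO, against 763, 771 and 616 in TrB_KO (-0.89, SE 0.09, adjusted p = 2.35e-05). Syk had 41.2, 37.3 and 38.4 in eMZB_KO, against 63.5, 62.1 and 69.7 in TrB_KO (-0.73, SE 0.08, adjusted p = 2.53e-05). Cd72 had 103, 95.5 and 105 in eMZB_KO, against 116, 129 and 136 in TrB_KO (-0.32, SE 0.09, adjusted p = 0.0129), and its call was lost without eMZB_KO replicate 2 (adjusted p = 0.062). These 4 genes were lower in every eMZB_KO library than in any TrB_KO library. They made up all calls: 4 of 9 genes passed, 0 higher and 4 lower, against 27.4% of all genes (14.2% higher, 13.2% lower), and 6 of 9 did not overlap, against 43.9%. On deposited values 0 of 9 passed by limma, with 2 at an unadjusted p under 0.05, against 4.67% of all genes; the log2 changes of the same 4 genes were then -0.65, -0.58, -0.42 and -0.02, beside an all-gene median of 0.23.

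The members that rose in wild-type cells gave smaller values here. Cd22 had 114, 112 and 107 scaled FPKM in eMZB_KO, against 87.8, 94.8 and 108 in TrB_KO, a log2 change of 0.20 (95% interval -0.00 to 0.39, adjusted p = 0.137). Bank1 had 56.8, 60.3 and 58.4 in eMZB_KO, against 43.8, 52.3 and 61.8 in TrB_KO (0.16, -0.08 to 0.41, adjusted p = 0.322). For both genes it was TrB_KO replicate 3, the library that stood apart, that overlapped with eMZB_KO. Without it Cd22 (0.29, adjusted p = 0.0183) and Bank1 (0.30, adjusted p = 0.0366) passed, giving 6 of 9 called. That fit called 2875 of all 9842 genes. Blk had 66.8, 64.6 and 66.5 in eMZB_KO, against 59.9, 66.5 and 64.04 in TrB_KO, and the log2 change was 0.06 (-0.10 to 0.21, adjusted p = 0.608). Blnk had 86.9, 86.5 and 87.7 in eMZB_KO, against 74.3, 80.7 and 84.4 in TrB_KO, and Btk had 33.4, 33.8 and 35.4 in eMZB_KO, against 32.1, 29.6 and 32.1 in TrB_KO. These last 2 genes did not overlap between the groups, yet their log2 changes of 0.13 (adjusted p = 0.258) and 0.12 (adjusted p = 0.297) did not pass.

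**Figure D4:**
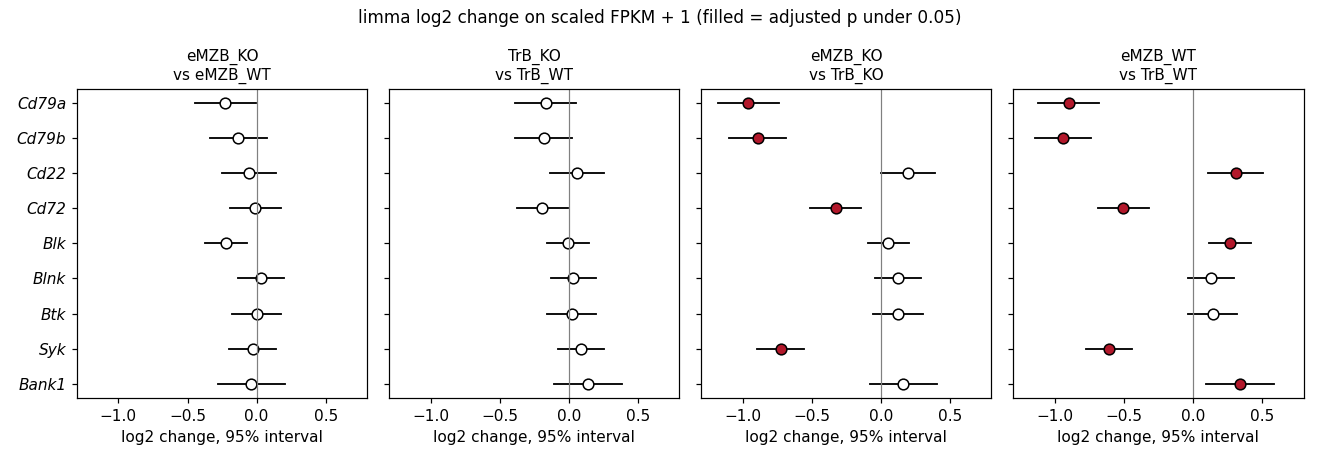
Log2 change on scaled FPKM + 1 (x axis; points, with 95% intervals of the limma fit as lines) of the 9 genes in 4 comparisons; filled points passed an adjusted p of 0.05. No gene is filled in either LSD1 comparison, and Cd79a, Cd79b, Cd72 and Syk are filled left of 0 in both cell type comparisons, a direction that Cd72 and Syk lose on deposited wild-type values.

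With loss of LSD1 in ex vivo-derived marginal zone cells none of the 9 genes passed the test: 0 were called by limma on scaled values, 2 had an unadjusted p under 0.05, and 0 were called by voom on recovered reads. Among all genes 0.406% passed. Cd79a, at 389, 402 and 385 in eMZB_KO against 468, 496 and 415 in eMZB_WT, averaged 0.852 times its wild-type level, a log2 change of -0.23 (95% interval -0.45 to -0.00, adjusted p = 0.909). Blk, at 66.8, 64.6 and 66.5 in eMZB_KO against 78.3, 76.5 and 76.5 in eMZB_WT, averaged 0.855 times its wild-type level, a log2 change of -0.22 (-0.37 to -0.07, adjusted p = 0.482). The groups did not overlap for 4 genes, Cd79a, Cd79b and Blk lower and Blnk higher in eMZB_KO, against 18.4% of all genes. For Blnk that gap was a log2 change of 0.03. The nearest wild-type library to the knockouts in Cd79a and Cd79b was eMZB_WT replicate 3, whose Kdm1a was intermediate. With sample weights in the fit Blk passed (-0.22, adjusted p = 0.0307), the 1 call among the 9 genes, beside 181 of all genes. Without TrB_KO replicate 3 and both wild-type libraries numbered 3 together, an alternative added after the data were seen, Cd79a passed (-0.29, adjusted p = 0.0252). Without the wild-type libraries alone it did not (-0.30, adjusted p = 0.576).

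For the other 7 genes the 95% intervals of the eMZB difference lay within -0.34 and 0.21 (log2). Btk averaged 34.2 ± 1.1 in eMZB_KO and 34.1 ± 0.4 in eMZB_WT, the smallest difference of the set, 0.00 (-0.18 to 0.18). Syk differed by -0.03 (-0.20 to 0.14) and Cd72 by -0.01 (-0.20 to 0.17). Flt3, the 1 listed of 5 dendritic cell markers, was at 4.52 to 5.67 in eMZB_KO, against 0.675 to 1.06 in eMZB_WT, and the part of such cells was not tested.

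In transitional B cells the result was the same count: 0 of 9 genes passed by limma on scaled values, 1 had an unadjusted p under 0.05, 0 passed by voom on recovered reads, and 0 had groups that did not overlap. Among all genes 0.498% passed and 10.5% did not overlap. Cd72, at 116, 129 and 136 in TrB_KO against 132, 149 and 156 in TrB_WT, gave the largest log2 change, -0.19 (95% interval -0.38 to -0.01, adjusted p = 0.476). Cd79a differed by -0.17 (-0.39 to 0.06) and Cd79b by -0.18 (-0.39 to 0.02). In both, the lowest value of all TrB libraries was that of TrB_KO replicate 3, and without it the Cd79a difference was -0.06. The other 6 genes differed by -0.01 to 0.14. The summed level of the macrophage and monocyte markers, 4 of 7 listed and mostly Ly6c2, was 51.1 to 64.6 in TrB_KO against 12.4 to 14.2 in TrB_WT, and 50.6 to 58.4 in eMZB_KO against 13.0 to 23.0 in eMZB_WT. Ly6c2 averaged 51.7 in TrB_KO against 7.80 in TrB_WT, and 49.1 in eMZB_KO against 15.8 in eMZB_WT. The other listed markers did not all move with the sum in TrB. Adgre1 (1.31 against 2.27) and Cd68 (1.84 against 2.62) were lower in TrB_KO, and Itgam (1.49 against 0.890) was higher. In eMZB_KO against eMZB_WT, Adgre1 (0.787 and 0.661), Cd68 (2.75 and 2.03) and Itgam (1.14 and 0.279) were higher. Csf1r, Lyz2 and Cd14 were not among the listed genes. The part of such cells in the differences of the 9 genes was not tested. On deposited values, where the median gene was higher by 0.52 in TrB_KO, all 9 genes had positive log2 changes, 0.44 to 0.76, and 0 passed (0 at an unadjusted p under 0.05).

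The response to LSD1 loss was then compared between the cell types (the eMZB difference minus the TrB difference). It passed for 0 of 9 genes by limma, with 1 at an unadjusted p under 0.05 and 0 called by voom, against 0.0102% of all genes. That gene was Blk, with an interaction of -0.22 (95% interval -0.43 to -0.00, adjusted p = 0.729). Blk averaged 66.0 ± 1.2 in eMZB_KO and 77.1 ± 1.1 in eMZB_WT, and 63.5 ± 3.3 in TrB_KO and 63.8 ± 3.8 in TrB_WT (SD, n = 3 each). Across genotypes within cell type, the Blk to Syk ratio differed by -0.15 (log2; exact permutation p = 0.045, adjusted p = 0.09), and the other 4 ratios by -0.04 to 0.10, with adjusted p of 0.317 to 0.845. Without TrB_KO replicate 2 the Blk to Syk difference was -0.18 and passed (exact permutation adjusted p = 0.025).

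The order of the levels, which FPKM allows since it is per length, was much the same in the 4 groups. Cd79a and Cd79b led everywhere, at 384 to 858 on average, and their ranges overlapped in every group. Cd22 and Cd72 came next in every group; Cd72 was above Cd22 in every TrB library, and Cd22 above Cd72 in every eMZB library. Blnk followed, at 78.0 to 87.0, and Btk was last in every group at 30.9 to 34.2. Between them Syk, at 61.2 to 65.1, stood beside Blk in TrB, where the values of the 2 kinases overlapped in both genotypes (Blk also overlapped with Bank1 in TrB_KO), and stood next to last in eMZB, at 39.0 to 39.8, below all values of Bank1 and Blk. The gene with the widest range of group means was Cd79a, 1.12 on the log2 scale. By the root mean square difference of centred log2 values over the 12 libraries, its nearest genes outside the set, among 4406, were Fam149b (0.114), Lsp1 (0.116) and Zcchc18 (0.122). Cd79b was nearer, at 0.0468.

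The rest of the pathway was described with 118 further genes in 9 groups of function, of which 103 were listed. In eMZB_WT against TrB_WT 26 were higher and 26 lower on scaled values and 51 did not pass, beside the 14.6% and 12.7% of all genes; the median log2 change was 0.08. On deposited values 29 were higher and 0 lower, beside 1779 higher and 117 lower of all 9842 genes (19.3% in either direction). The falls below are thus relative to the typical gene. In eMZB_KO against TrB_KO 24 were higher, 31 lower and 48 not called, beside 14.2% and 13.2% of all genes. On deposited values 7 were higher and 0 lower, beside 387 higher and 73 lower of all genes (4.67% in either direction).

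Among the receptors, all 5 positive coreceptors passed in eMZB_WT against TrB_WT, 3 higher and 2 lower. Cr2, the complement receptor CD21 used for the eMZB sort, was higher by 2.77 (log2, SE 0.11, adjusted p = 2.16e-08), its partner Cd81 by 0.86 and the ectoenzyme Cd38 by 0.86. Of 7 inhibitory receptors 2 were higher and 4 lower. Fcrl5, a receptor known from marginal zone cells, averaged 27.1 ± 1.2 in eMZB_WT and 2.86 ± 0.94 in TrB_WT (log2 change 2.89, adjusted p = 1.77e-07), while Pirb (-1.02) and Siglecg (-0.98), which carry the same kind of inhibitory motif as Cd22, were lower.

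Among the enzymes close to the receptor, 3 of 7 Src and Tec family kinases and Csk were higher and 3 lower. Csk, which inhibits Src family kinases, changed by -0.64 (adjusted p = 8.55e-05), and the Src family kinase Fgr by 0.70. Of 9 phosphatases 1 was higher and 2 lower: Ptpn22, which dampens Src family and Syk family kinases, changed by 1.80 (adjusted p = 1.13e-06), and Ptpn6, the phosphatase that Cd22 and Cd72 recruit, by -0.52. Ptpn6 and Csk had positive changes on deposited values, 0.35 and 0.21.

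Further downstream, 7 of 24 adaptors were higher and 3 lower, with Stap1 (0.95), the raft protein Rftn1 (0.84) and Sh3bp2 (0.59) among the higher. Of 22 genes of lipid and calcium signalling 5 were higher and 6 lower. The calcium channel subunit Orai2 changed by -1.18, the calcium-regulated transcription factor Nfatc1 by 0.87 and the diacylglycerol kinase Dgka by -0.47 (0.36 on deposited values). Of 19 genes of the Vav, Ras and Rac arm 3 were higher and 3 lower, and both Ras activators of the same family went opposite ways: Rasgrp3 averaged 28.3 ± 1.4 in eMZB_WT and 7.84 ± 1.21 in TrB_WT (log2 change 1.74, adjusted p = 3.78e-07), and Rasgrp1 averaged 19.4 ± 0.9 in eMZB_WT and 32.2 ± 3.0 in TrB_WT (-0.70, adjusted p = 0.000157, and 0.14 on deposited values). The kinase Map2k1 changed by 0.93. Of 10 genes of the protein kinase C arm 2 were higher and 3 lower, with Prkca (-0.76), Tab2 (-0.41, and 0.22 on deposited values) and Bcl10 (0.31) having the smallest adjusted p.

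**Figure D5:**
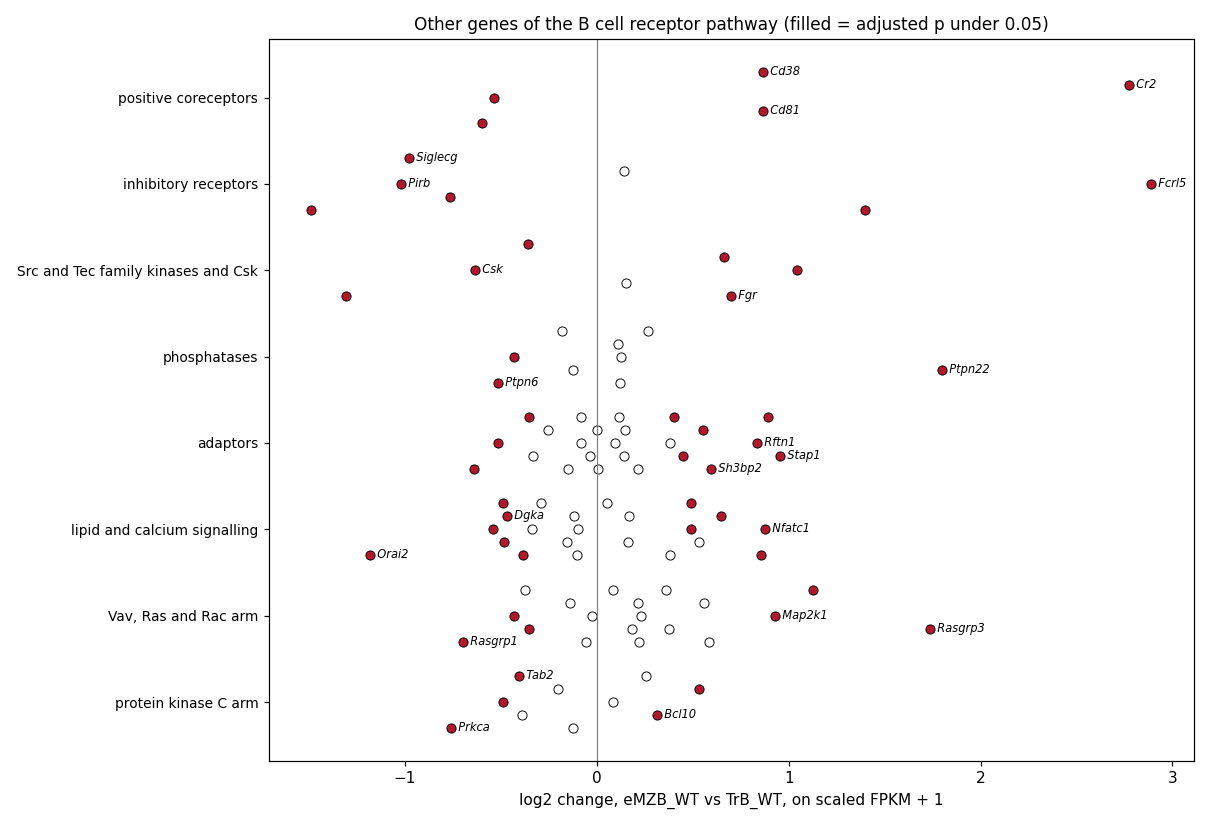
Log2 change on scaled FPKM + 1 in eMZB_WT against TrB_WT (x axis) of 103 further pathway genes, by functional group (y axis; the vertical offset within a group has no meaning); filled points passed an adjusted p of 0.05, and up to 3 genes with the smallest adjusted p of each group are named. Each group holds genes on both sides of 0 on this scale. On deposited values 29 genes passed above 0 and 0 below, beside 1779 and 117 of all 9842 genes.

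With loss of LSD1, 3 of the 103 further genes passed in TrB, beside 0.498% of all genes (49, of which 38 higher), and all 3 were higher: Cr2 averaged 13.3 ± 1.8 in TrB_KO and 8.77 ± 1.14 in TrB_WT (log2 change 0.55, adjusted p = 0.0469), Fgr 3.53 ± 0.33 in TrB_KO and 2.08 ± 0.25 in TrB_WT (0.56, adjusted p = 0.04), and Rasgrp3 12.04 ± 1.42 in TrB_KO and 7.84 ± 1.21 in TrB_WT (0.56, adjusted p = 0.0453). All 3 were also higher in eMZB_WT than in TrB_WT, a comparison that shares the TrB_WT libraries. These calls were marginal: voom on recovered reads called 0 of the 103, and leaving out 1 library kept Cr2 in 2 of 12 fits, Fgr in 2 and Rasgrp3 in 1, with adjusted p up to 0.182. Without both wild-type libraries numbered 3 Cr2 (adjusted p = 0.0283) and Rasgrp3 (0.0311) passed and Fgr (0.0876) did not. In eMZB 0 of 103 passed by limma, with 10 at an unadjusted p under 0.05 and 0 called by voom, beside 0.406% of all genes. For the interaction 0 of 103 passed by limma, with 13 at an unadjusted p under 0.05 and 0 called by voom, beside 0.0102% of all genes.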

How the data were processed

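The series holds 12 RNA-seq libraries of 4 groups, each from 2000 sorted cells, made with the SMART-Seq v4 and Nextera XT kits, per the labels' protocols; strand is not marked by them. STAR and mm10 are named in the submitters' processing notes; neither counter nor annotation is given in the sources used here. FPKM values for 9842 genes with Entrez IDs were deposited by the authors, of which 9833 matched a symbol in the RefSeq gene table; 0 value columns were left unused. The 9 genes, the pathway lists and the tests were chosen with earlier results of these data known.

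FPKM were divided by median-of-ratios factors (0.613 to 2.14). limma (3.58.1, R 4.3.3; lmFit, eBayes with trend) was fitted on log2(scaled FPKM + 1) of all genes and 12 libraries with 4 group means, with calls at a p under 0.05 after Benjamini-Hochberg adjustment over all genes. A fold change on this scale understates the change of low genes. Whole reads, recovered from FPKM for 9842 genes within 0.02 reads, gave the depth and a voom alternative; with no molecular identifiers, reads are not separate molecules. The fits were tested on simulated data. Figures used matplotlib 3.10.9, and other steps scipy 1.17.1, pandas 2.3.3 and numpy 2.4.6 in Python 3.11.15.

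Ratios of deposited FPKM were tested by exact permutation within strata, two-sided. Named were all 9 genes, Kdm1a, the sorting markers, pathway genes called with LSD1 loss, and per pathway list the 3 called genes of smallest adjusted p between wild-type cell types. Some genes this rule takes are not reported here. Markers of NK cells (1 of 5 listed, Gzmb, at most 2.25 scaled FPKM), dendritic cells (1 of 5, Flt3, at most 5.67), erythroid cells (1 of 5, Hbb-bs, at most 2.6) and stroma (1 of 6, Vim, 11.8 to 35.2) had a single listed gene each, and those of plasma cells (5 of 5, led by Xbp1) summed to 34.4 to 41.8 in eMZB_KO, 49.1 to 58.3 in eMZB_WT, 47.7 to 97.6 in TrB_KO and 31.8 to 53.6 in TrB_WT.

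Replicate numbers come from the labels, which give no shared source for a number. Deviations from the group means correlated above 0.1 for all same-numbered libraries only between eMZB_KO and TrB_KO (0.161, 0.106 and 0.292). Alternatives were the deposited scale, other scalings, a pseudocount of 0.1, a mean of at least 5 scaled FPKM, the compared groups alone, sample weights, no trend, a replicate block, voom, and libraries left out.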

Additional observations from a re-analysis of the deposited data

How the results depend on the processing

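On deposited values 2 members were called in eMZB_WT against TrB_WT and 0 in eMZB_KO against TrB_KO. Of the pathway genes 29, 7 and 0 were called in eMZB_WT against TrB_WT, eMZB_KO against TrB_KO and TrB_KO against TrB_WT. Of all genes on that scale 1896, 460 and 19 were called, in the same order. There the sign turned for Cd72 (0.36) and Syk (0.25) in eMZB_WT against TrB_WT, for Cd79a (0.46), Cd79b (0.45), Cd72 (0.44) and Blk (0.61) in TrB with LSD1 loss, and for Cd22 (0.016), Cd72 (0.0603), Syk (0.0402) and Bank1 (0.0328) in eMZB with LSD1 loss; the all-gene medians moved with them. Leaving out 1 library gave 4 to 7 members called in eMZB_WT against TrB_WT. It gave 4 without eMZB_WT replicate 1 or TrB_WT replicate 1, beside 1949 and 2246 of all genes. Sample weights called 1 member, Blk, in eMZB with LSD1 loss, beside 181 of all genes. Without TrB_KO 3, TrB_WT 3 and eMZB_WT 3 the counts were 1 there, 7 in eMZB_KO against TrB_KO and 9 in eMZB_WT against TrB_WT. Among all 9842 genes the counts were then 68, 3550 and 2969, against 40, 2695 and 2693 with all 12 libraries.

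The other changes of sign were of differences near 0, and their cause was not tested. With 75th percentile scaling Cd22 (-0.00089), Blnk (-0.0258) and Btk (-0.0389) turned in TrB with LSD1 loss. Quantile normalization turned Btk in TrB (-0.0285), Cd79b in eMZB (0.0179), and Cd22 (-0.0367) and Blnk (-0.0329) in eMZB_KO against TrB_KO. Blk in TrB turned with sample weights (0.0537), voom (0.00078), without both wild-type libraries numbered 3 (0.0355) and without the 3 libraries (0.0292). Btk in eMZB turned with weights (-0.0113), without both (-0.00641) and without the 3 (-0.00197). Syk in eMZB turned without both (0.00407) and without the 3 (0.0085), and Cd79a (0.00226) and Syk (-0.00389) in TrB without the 3. Leaving out 1 library gave -0.0225 to 0.132 for Cd22, -0.0416 to 0.0377 for Blk, -0.0162 to 0.10 for Blnk and -0.0537 to 0.0932 for Btk in TrB, and -0.0395 to 0.0301 for Cd72, -0.0228 to 0.0178 for Btk and -0.0703 to 0.0031 for Syk in eMZB.

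The ratios Cd22 to Cd72, Blk to Syk and Btk to Syk kept their size between cell types with the replicate block (0.67, 0.85 and 0.82) and without both wild-type libraries (0.67, 0.91 and 0.90) but lost their calls (exact permutation adjusted p of 0.104 and 0.0556). The Cd79a to Cd79b ratio between cell types was 0.0133 and Btk to Syk with LSD1 loss 0.0187 without both. Leaving out 1 library gave -0.0268 to 0.00599 for Cd79a to Cd79b and -0.17 to -0.0912 for Blnk to Bank1 between cell types, and -0.18 to -0.10 for Blk to Syk, -0.0764 to 0.0401 for Btk to Syk and -0.0561 to 0.0221 for Blnk to Bank1 with LSD1 loss. Blnk to Bank1 between cell types passed without TrB_KO replicate 3, and Blk to Syk with LSD1 loss without TrB_KO replicate 2.

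The replicate block changed no call of a single member by limma: 7, 4, 0, 0 and 0 were called as before. Calls over all genes varied more, 9 to 115 in TrB and 15 to 181 in eMZB with LSD1 loss, against 49 and 40, and 460 on deposited values against 2695 in eMZB_KO against TrB_KO (387 higher and 73 lower, against 1398 and 1297; for eMZB_WT against TrB_WT 1779 and 117, against 1440 and 1253). The compared groups alone were not run for the interaction.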
